A study of Mus musculus with 12 samples.

Results

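Matrix proteases and their inhibitor were followed through 5 genes of mouse inguinal white adipose tissue (iWAT), Mmp2, Adamts15, Adam23, Anpep and Timp3. Adam23 belongs to the ADAM family of proteases by sequence but lacks protease activity, and Anpep trims peptides at the cell surface, so the name holds strictly for Mmp2, Adamts15 and Timp3. All rows with these gene names were taken from the authors' 2 deposited tables of differential N6-methyladenosine (m6A) sites, 1 of sites higher and 1 of sites lower in the cold. This gave 8 of 739 sites and 5 of 574 genes, and Adamts15 held 4 of the 8 sites. The members were chosen by the values that put a site into these tables, its fold, p-value and false discovery rate (FDR), so these values and the direction are described here and were not tested. Every fold given here is the authors' deposited value.

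The tissue came from male C57BL/6 mice, as the labels give the strain (C57BL/6J in the methods of the study, which also give an age of 8 weeks), housed in the cold, at 4 °C, or at thermoneutrality, at 30 °C, over 7 days, with no other allele or agent named. Fragmented mRNA was pulled down with an anti-m6A antibody (m6A IP) or kept without pull-down (input), and each temperature had 3 libraries of each kind. Whether a library held 1 mouse or a pool is not given in the sources used here. One label calls the source adipocytes and another the whole fat pad, and the methods of the study describe the whole tissue, which also holds stromal, vascular and immune cells. The values analysed here were 1 fold per site for the finished comparison, so no value of a single library, no depth and no spread between mice can be given.

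The extracellular matrix around fat cells is cut by zinc-dependent proteases when tissue is remodelled. Matrix metalloproteinases (MMPs) such as Mmp2 cut collagens, the secreted ADAMTS enzymes cut proteoglycans, and the ADAMs are membrane proteins of which several shed other surface proteins. Tissue inhibitors of metalloproteinases (TIMPs) block these enzymes. m6A is a methyl mark on adenosines of mRNA, laid down mostly within the short sequence DRACH (where D stands for any base but C, R for a purine and H for any base but G), often as GGAC and often near the stop codon or in the 3' UTR, and proteins that read it can change the stability and translation of the transcript.

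The sequences below show, for each member site, the match to an m6A-related motif nearest the middle of the site, because the antibody places a methylated base only to within a whole site. They were read 5′ to 3′ on the transcribed strand of GRCm38 (mm10), with DNA letters, and the capitals mark the match, which was GGACT where the site had one, otherwise GGAC, otherwise any DRACH. The GGAC printed for Adamts15 site 1 is followed by G and is therefore not a DRACH match, and the motif printed for Adam23 lies in the part of its site that is intronic in the coding transcripts. A match is a description and does not show that the base was methylated. The sites of Adamts15 are numbered from the 5′ end of the transcript.
Mmp2: cctgcccaaaGGACTcgggttgtct
Adamts15 site 1: tggtggtggcGGACgagtcaatgg
Adamts15 site 2: tggactgccgGGACTccccagggca
Adamts15 site 3: gaaactacagGGACcacttgttga
Adamts15 site 4: cggctcctggAGACTctagatactg
Adam23: aaaaagctgaAAACAtggaagagca
Anpep: gcaagccttgGAACCagtatcgctt
Timp3: ttagcactggGGACacttaaagtc

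Of the 8 sites 7 were lower in cold, and 1 was higher. The 7 lower sites lay in Mmp2, Adamts15, Adam23 and Timp3, and the higher site lay in Anpep. Among all 739 listed sites 59.3% were lower and 40.7% higher, and these shares are given only as background because the tables themselves chose the members. By gene, 4 of the 5 had lower sites only and 1 had a higher site only, beside 61.1% and 36.1% of all genes listed. The deposited folds of the 7 lower sites ran from 4.90 to 369.1 with a median of 52.6, beside a median of 20.9 over the 438 lower sites listed. Over all 8 sites the median fold, without regard to direction, was 43.5, beside 15.3 over all 739 sites. It was 126 among the 6 sites with a fold of at least 8 and 23.0 without the folds that are whole multiples of 0.1. The median over all listed sites was not taken under these cuts, so neither value is to be set beside 15.3. A minimum fold raises any median.

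**Figure D1:**
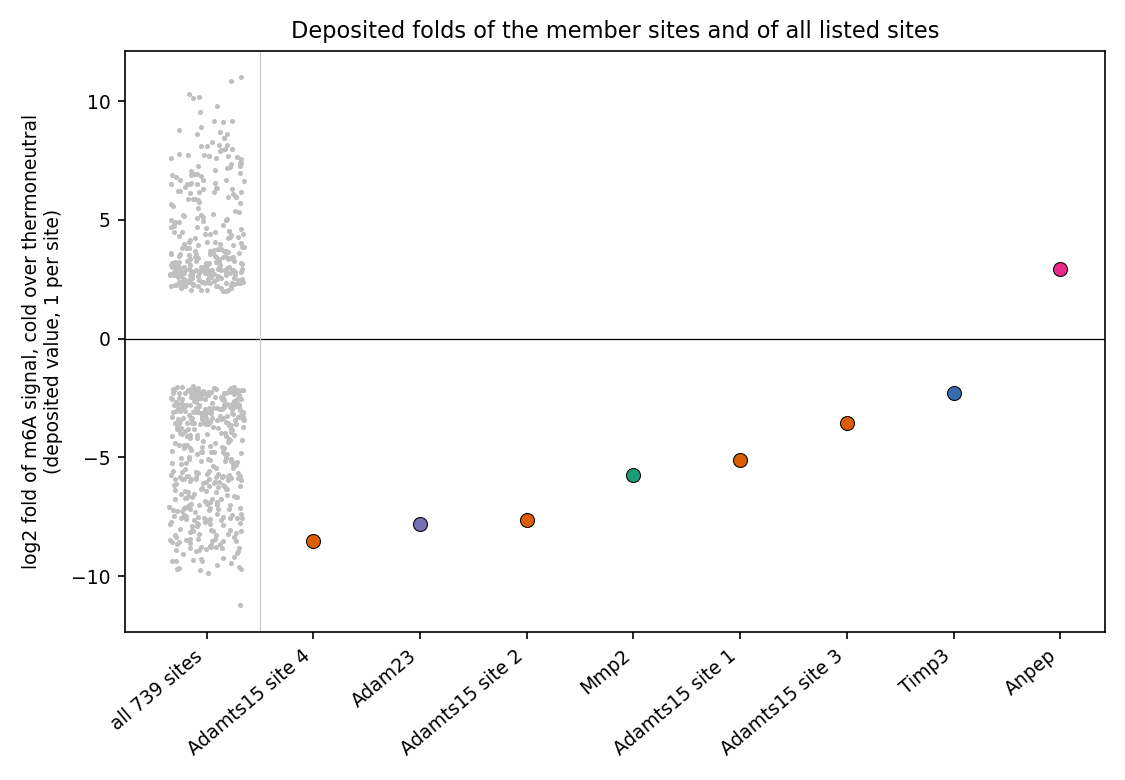
Log2 of the authors' deposited fold (cold over thermoneutral, 1 value per site, no error available) for all 739 sites as grey points, spread sideways for visibility, and for the 8 member sites as coloured points. The member sites run from 369.1-fold lower (Adamts15 site 4) to 7.68-fold higher (Anpep), and no listed site lies between 4.01-fold lower and 4.01-fold higher.

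The smallest fold in the tables was 4.01 and the largest FDR was 7.27e-05, so smaller changes in these 5 transcripts would not be seen. Timp3, with a fold of 4.90, was the member nearest to that floor. The shortest listed site had 300 bp and the member sites had between 306 and 799 bp. Whether the fold was corrected for the input is not stated in the sources used here, so it may hold a change in transcript amount as well as in methylation. In bulk tissue, fewer cells of a type and less RNA per cell cannot be told apart either.

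Mmp2 (Entrez gene 17390) encodes gelatinase A, a secreted MMP that cuts denatured collagen and the type IV collagen of basement membranes. Its single site was 52.6-fold lower in cold (FDR 1.76e-07). The site covered 319 bp on chromosome 8, 92852942 to 92853260, on the plus strand, within exon 13 of 13. It lay wholly in the 3' UTR, from 277 to 595 nt after the stop codon, in a 3' UTR of 755 nt. The fold was a whole multiple of 0.1, as were 109 of the 739 folds, including 16.7% of the lower ones, so its order relative to other folds is not read as an order of effect. The site held 1 GGAC, which was also its only GGACT, at 540 nt after the stop codon.

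Adamts15 (Entrez gene 235130) encodes a secreted protease with thrombospondin motifs that cuts proteoglycans such as versican and aggrecan. It had the most sites of the 5 genes, 4, and all were lower in cold. Most genes in the tables (82.1%) had 1 site, and only 9 of 574 had at least 4, of which 4, Adamts15 included, had lower sites only, 4 had higher sites only and 1 had both. The Adamts15 sites shared a transcript and are not independent measurements. Together they covered 1883 of the 5928 nt of the coding transcript, or 31.8%.

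Along the transcript the deposited folds of Adamts15 were uneven. Site 1 was 34.3-fold lower (FDR 1.92e-07) and lay within exon 1 of 8, chromosome 9, 30921382 to 30921700, minus strand, wholly in the coding sequence (CDS) from base 538 to base 856 of the CDS. Site 2 was 200.3-fold lower (FDR 1.76e-07) at 30901962 to 30902420 and crossed the stop codon, with 53 nt in the 3' UTR. Site 3 was 11.7-fold lower (FDR 4.75e-07) at 30901002 to 30901800, from 215 to 1013 nt after the stop codon. Site 4 was 369.1-fold lower (FDR 1.37e-08) at 30899155 to 30899460 and ended on the last annotated base of the transcript, 2860 nt after the stop codon. Position 30899155 lies off the 20 bp grid of the first coordinates of the other Adamts15 sites. Whether the signal itself ended there cannot be told. The 3 sites downstream of site 1 all lay in exon 8, the last exon, of 3635 bp, and exons 2 to 7 held no listed site.

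Site 2 and site 3 of Adamts15 were only 161 nt apart, yet their deposited folds of 200.3 and 11.7 differed by 17.1 times. No error was available to test that difference. The fold of site 4 was a whole multiple of 0.1 like that of Mmp2, so it is given as a value and not ranked. Among the 438 lower sites, site 2 ranked 70, site 1 ranked 192 and site 3 ranked 265 by fold. These ranks count the 73 lower sites whose fold is a whole multiple of 0.1, so they are positions in the list only.

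Adam23 (Entrez gene 23792) encodes a membrane protein of the ADAM family that lacks protease activity and serves in cell adhesion, mainly known from the nervous system. Its site was 220.7-fold lower in cold (FDR 1.46e-07), on chromosome 1, 63567849 to 63568260, plus strand. It began on the first base of exon 22 of 26, covered all 120 bp of that exon and ran 292 bp into the intron that follows. This start is an annotated exon edge and lies off the 20 bp grid of the Mmp2, Anpep and Timp3 starts. Whether the signal itself began there cannot be told. All 3 protein-coding transcripts of Adam23 in GENCODE M21 splice at the end of this exon. Of its 12 annotated transcripts only 1, of the retained-intron type, held the whole site in an exon, its last exon of 1246 bp. The deposited table likewise assigned the site to a UCSC transcript rather than a RefSeq transcript. Thus 70.9% of this site was intronic in the coding transcripts, and among all 727 sites with a coding transcript 10.2% had their midpoint outside its exons. The 3' UTR of Adam23, of 3620 nt, had no listed site.

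Timp3 (Entrez gene 21859) encodes an inhibitor that binds to the matrix and blocks MMPs, ADAMTS enzymes and ADAM17, the enzyme that sheds tumour necrosis factor. Its site was 4.90-fold lower in cold (FDR 1.49e-05), the smallest fold and the largest FDR of the 8 sites. It lay on chromosome 10, 86345882 to 86346260, plus strand, within exon 5 of 5, began in the last codons of the CDS and ended 358 nt after the stop codon. The remainder of this 3' UTR, which is 3604 nt long, had no listed site. Only 9.59% of the lower sites had a smaller fold. Timp3 lies within Syn3, annotated on the same stretch of the genome, and whether reads were assigned by strand is not given in the sources used here.

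Anpep (Entrez gene 16790) encodes aminopeptidase N, also called CD13, a zinc enzyme of the cell surface that trims amino acids from the ends of peptides and is carried by myeloid and stromal cells. Its site was 7.68-fold higher in cold (FDR 5.88e-08), opposite in direction to the other 4 genes. It ranked 198 among the 301 higher sites by fold, folds in whole multiples of 0.1 included, and 15 by p-value (2.15e-10). The site lay on chromosome 7, 79841862 to 79842280, minus strand, within exon 2 of 21. It crossed the start codon, with 29 nt of 5' UTR and 390 nt of CDS. This was the only member site at the 5′ end of the coding sequence, and the 574 bp last exon of Anpep had no listed site.

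**Figure D2:**
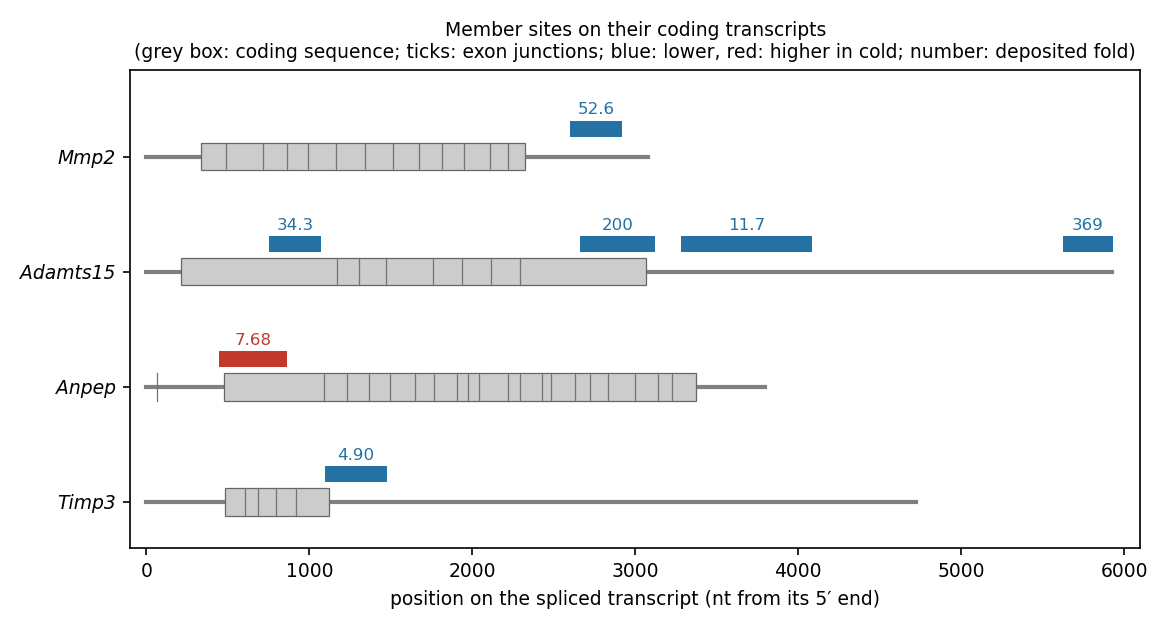
The 7 member sites inside an exon of the coding transcript, drawn to scale on the spliced coding transcripts of Mmp2, Adamts15, Anpep and Timp3 (x axis in nt from the 5′ end, grey box for the CDS with the stop codon, ticks for exon junctions, blue for lower and red for higher in cold, numbers for the deposited fold). Adam23 is not drawn because 292 of its 412 bp are intronic; the Anpep site alone spans a start codon, and the sites of Mmp2 and Timp3 and 3 of the 4 Adamts15 sites lie in the last exon.

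By the midpoint of the site, the 3' UTR held 4 of the 8 sites, the CDS 3 and an intron of the coding transcript 1, that of Adam23. Over all 653 sites placed in a UTR or CDS, the 3' UTR held 62.3% and the CDS 35.7%, beside 4 and 3 of the 7 member sites so placed. The last exon held 5 of the 8 sites, 3 of them in Adamts15, and the share over all listed sites was not computed. Each of the 5 coding transcripts had 2 exons of at least 300 bp, the length of the shortest listed site. Both such exons of Adamts15 held sites, and 1 of the 2 did in Mmp2, Anpep and Timp3.

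GGAC was sought on the transcribed strand of each site, overlaps counted, beside the longer GGACT and the looser DRACH, which a GGAC followed by A, C or T also matches. It was found in 5 of the 8 sites, 13 times in 3412 bp or 3.81 per kb, beside 84.1% of all 699 exonic sites, where it stood at 4.43 per kb. Exonic here means wholly inside 1 exon of any annotated transcript of the gene, which takes in Adam23 through its retained-intron transcript. The member sites without GGAC were Adamts15 site 4, Adam23 and Anpep. When each gene counted only by the site with its largest deposited fold, GGAC was in 2 of 5 sites. For Adamts15 that choice took site 4, by a fold that is a whole multiple of 0.1, while its other sites all held GGAC. Among the 481 exonic sites under 500 bp, 79.2% held GGAC. DRACH was in all 8 sites, from 13.1 per kb in Adamts15 site 4 to 25.1 per kb in Mmp2, and also in every one of the 699 exonic sites, so its presence sets no site apart.

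Adamts15 carried most of the GGAC matches of the group. Site 1 had 3, site 2 had 4 and site 3 had 4, while site 4 had 0. The 2 GGACT copies of site 2 stood 9 bases apart, start to start, and the upstream copy can be read in the lower case letters printed above. The GGAC density of the Adamts15 sites together was 5.84 per kb, beside 6.92 per kb in the rest of its transcript. Site 1, at 9.40 per kb, and site 2, at 8.71 per kb, were above that level, and site 3, at 5.01 per kb, was below it. In Mmp2 it was 3.13 per kb in the site and 7.25 per kb outside it, and in Timp3 2.64 and 2.99 per kb. Anpep had 14 GGAC in its transcript and none in its site. The GC content of the member sites ran from 40.05% in Adam23 to 62.1% in Adamts15 site 1, beside quartiles of 42.5% and 53.7% over exonic sites.

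**Figure D3:**
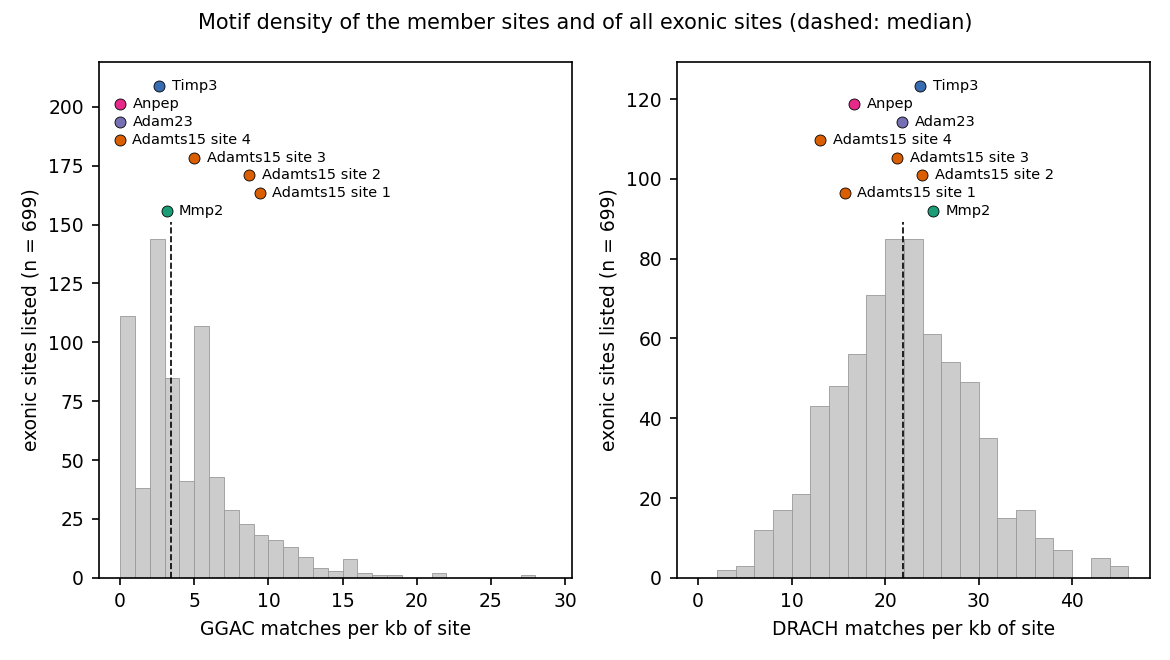
Histograms of GGAC (left) and DRACH (right) matches per kb for the 699 listed sites wholly inside 1 exon of any annotated transcript of their gene, with the median as a dashed line, and the 8 member sites as coloured points whose height only separates the labels. For GGAC, 3 member sites sit at 0 and Adamts15 sites 1, 2 and 3 lie above the median of 3.45 per kb; for DRACH the members lie between 13.1 and 25.1 per kb, around the median of 21.9.

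Other genes of protease and inhibitor families were read from lists of 118 symbols, chosen with earlier results of these data known. Of these, 14 genes had a site, 12 with lower sites only and 2 with higher sites only, and without the 5 members the counts were 8 lower and 1 higher of 113 symbols. The counts depend on the lists. They take in Pcolce2 (lower), which is not itself a protease, and leave out Serping1 (higher) and Cstb, Ctsa and Ctso (lower). Over the genes listed, 61.1% had lower sites only and 36.1% higher sites only, and the 564 listed genes with a coding transcript came to 2.57% of the 21924 protein-coding gene symbols of GENCODE M21. At a fold of at least 8 the lower count fell to 6 genes, and at a p of at most 1e-07 to 7, with 1 higher gene each time. That higher gene was Plg at the fold cutoff and Anpep at the p cutoff. A gene without a site is only one in which no change past the floor of the tables was listed.

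Of the 23 MMP genes only Mmp2 had a site, and its activator Mmp14 had none. Of the 14 ADAM genes, Adam33 joined Adam23, with a site 6.84-fold lower whose midpoint lay outside the exons of its coding transcript. Of the 25 ADAMTS and ADAMTS-like genes, Adamts5, an aggrecan- and versican-cutting protease, joined Adamts15, with a 3' UTR site 7.85-fold lower. Each of these families thus had lower sites only, in 1 or 2 genes.

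All TIMPs with a site were lower as well. Of 10 inhibitor genes, 3 had a site, Timp2 (4.24-fold lower), Timp3 and Timp4 (40.2-fold lower), and Timp1 and Reck had none. The midpoint of the Timp4 site lay outside the exons of its coding transcript. The few MMP, ADAM, ADAMTS and TIMP genes that had a site thus had lower sites only, beside 61.1% of all genes listed. Among them were the members Mmp2, Adamts15, Adam23 and Timp3, chosen by these same values. The folds cannot be turned into a balance of protease and inhibitor, since no protein was measured.

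Among 30 genes of the plasmin system, cathepsins and other matrix proteases, 5 had a site. Plat, the tissue plasminogen activator, was 140.9-fold lower, Pcolce2, an enhancer of procollagen processing, 15.7-fold, the serine protease Htra3 4.93-fold and Serpinf1, a secreted serpin, 4.43-fold lower. Plg, which encodes plasminogen, the substrate of Plat, was 26.3-fold higher, with its midpoint outside the exons of its coding transcript. Of the 16 surface peptidases Anpep alone had a site, and Dpp4, Mme and Fap had none.

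Matrix proteins that these enzymes cut or bind were listed only as lower. Of 28 symbols 7 had a site, all with lower sites only, beside 61.1% of all genes listed. Vcan, which encodes versican, a substrate of Adamts15, had sites 354.2-fold and 14.8-fold lower. The larger Vcan fold was a whole multiple of 0.1, like that of Mmp2, and is not read as a size of effect. Biglycan (Bgn) had sites 27.5-fold and 9.43-fold lower, and decorin (Dcn) a site 4.85-fold lower.

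**Figure D4:**
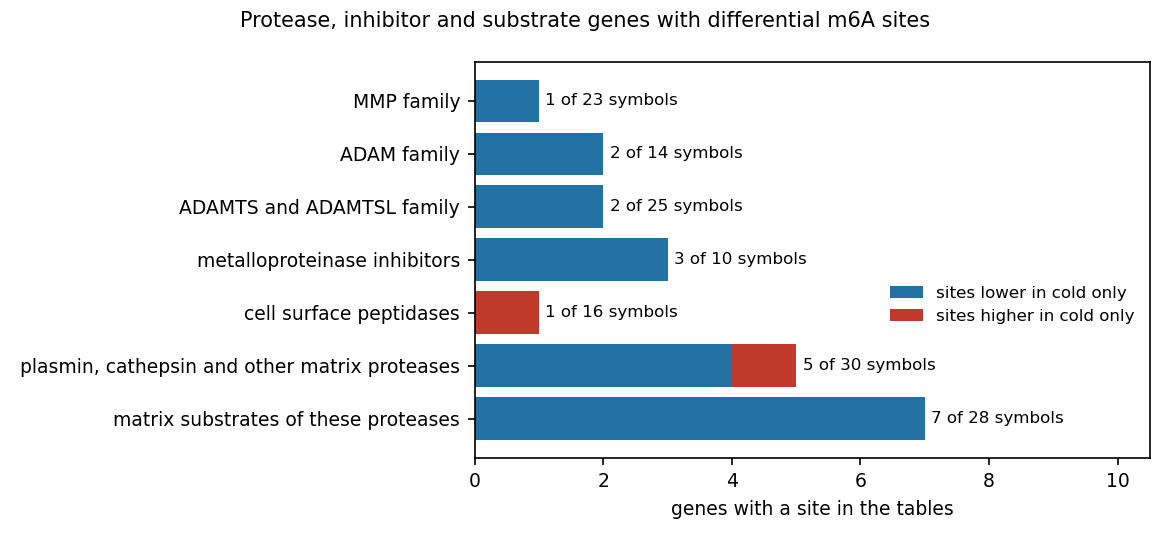
Number of genes with a differential m6A site in each list of proteases, inhibitors and substrates (x axis, genes; blue, lower sites only; red, higher sites only; text, genes with a site of all symbols on the list). The 3 metalloproteinase inhibitors and 7 substrates with a site are all lower, and the higher genes are Anpep and Plg.

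Markers of the cell types that the fat pad could hold were listed in different directions, beside 61.1% lower only and 36.1% higher only over all genes listed. Of 15 fibroblast and preadipocyte markers 4 had a site (Col3a1, Dcn, Ly6a and Prrx1), all lower. Col3a1 and Dcn were also among the matrix proteins counted above, so these are the same sites. Of 10 macrophage markers 4 had a site (C1qa, Ccr2, Cd163 and Lyz2), all lower. Of 10 skeletal muscle markers 8 had a site, all higher, and of 8 endothelial and 7 lymphocyte markers 0 had one. Of 7 mural cell markers 2 had a site, Notch3 (22.5-fold) and Des (9.05-fold), both higher. Des also encodes a skeletal muscle protein, so its site does not single out mural cells. Of 8 epithelial markers 2 had a site, Epcam, which was lower, and Prlr, which had sites in both directions. Of 10 adipocyte markers Ucp1 and Cidea were higher and Lep was lower. No expression level was analysed, so neither the labelled tissue nor the amount of each cell type could be checked, and the part of cell composition in the member folds was not tested.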

How the data were processed

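MeRIP-seq had been performed on 12 libraries in 4 groups of 3, taken from the sample titles. According to the methods of the study, cutadapt trimmed the reads, Hisat2 aligned them to mm10, MACS2 called peaks and diffReps called differential sites. The aligner listed in the submitters' processing notes is Bowtie 0.12.2, with mm8 listed beside mm10. The authors deposited per site a fold (a linear ratio, above 1 in both tables), a p-value, an FDR and the −log10 of the p-value as score. These columns are the authors' own finished comparison, the only values analysed here, and carry no error and no depth. The table names compare C with T, taken here for the cold and thermoneutral groups of the sample titles. Starts were read as counted from 0 and are printed counted from 1.

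Python 3.11.15 with pysam 0.24.0, numpy 2.4.6 and pandas 2.3.3 was used to place each site, by midpoint, on the GENCODE M21 coding transcript with the longest CDS, with 11 symbols matched by Entrez gene. Motifs were counted on the GRCm38.p6 RefSeq genome, and functions were tested on simulated data. Printed motifs have 10 flanking bases on each side. A fold was called a whole multiple of 0.1 within 1e-06 on 10 times the fold. The text names the 5 members with every site, and genes of the protease lists by whether they had a site. Members and lists were chosen with earlier results of these data known. No test was run. Alternatives were a minimum fold of 8, a p of at most 1e-07, other motifs, transcripts and start conventions, and 1 site per gene.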

Additional observations from a re-analysis of the deposited data

How the results depend on the processing

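No result changed direction, but the direction of each site is fixed as deposited, so these alternatives could not reverse it. Taking 1 site per gene, that with the largest deposited fold, 4 sites of 5 were lower, and GGAC was in 2 sites at 1.09 per kb. For Adamts15 this took site 4, without GGAC and with a fold in whole multiples of 0.1, while its other sites held GGAC. The median fold of the member sites was 126 at a fold of at least 8 and 23.0 without folds in whole multiples of 0.1. No median over all listed sites was taken under the same cuts. In place of GGAC, GGACT was in 2 sites at 0.879 per kb and DRACH in 8 sites at 20.5 per kb, since the motif is longer or looser. Of the protease and inhibitor genes, 6 were lower and 1 (Plg) higher at a fold of at least 8. At a p of at most 1e-07, 7 were lower and 1 (Anpep) higher, since fewer genes entered each time. The other 12 of 25 alternatives moved a value by at most 1.5 times, among them the start convention and the choice of transcript. No paired analysis was possible because the tables hold no values of single libraries, and for the same reason leaving out each replicate was not run. Depth is unknown, so no limit from it can be given.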

Other observations

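The functional annotation in the deposited tables gave further peptidases, a grouping chosen after the values were seen. Metallopeptidase activity was annotated for 8 listed genes, of which 7 had lower sites only and Anpep a higher site. The 4 that are not among the 5 genes described above were all lower, namely Adam33, Adamts5, Ide and Ermp1. Ide, the insulin-degrading enzyme, had 3' UTR sites at deposited folds of 699.8 and 7.22. The larger Ide fold was a whole multiple of 0.1 and is not read as a size of effect. Ermp1, a metallopeptidase of the endoplasmic reticulum, had sites at 15.4 and 11.8. Cathepsins outside the lists were lower too, Ctso 65.5-fold and Ctsa 35.3-fold, as was the cysteine protease inhibitor Cstb, at 96.4-fold. The Ctso site had its midpoint outside the exons of its coding transcript. Serping1, the inhibitor of complement C1, went the other way and was 19.2-fold higher, with its site in exon 3 of 8. The background share of lower-only genes was 61.1%, and no test was made on this grouping.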
